A study of Homo sapiens with 7 samples.

Results

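REEP3, SLC44A1, SGCB and YIPF6 are membrane protein genes picked from the deposited counts because they fell strongly after DEPDC1 knockdown, and REEP4 and REEP5 were added as relatives of REEP3. These 6 genes are among 60675 gene identifiers in the table, and all 6 passed the count filter that left 16583 genes for testing. MDA-MB 231 cells, an established human triple-negative breast cancer line, received either control siRNA (siCTL, 3 libraries, genotype given as DEPDC1 WT) or DEPDC1 siRNA (siDEPDC1, 4 libraries, genotype given as DEPDC1 KD). In both groups the siRNA was delivered with Lipofectamine RNAiMAX, the medium was changed at 8 h, and RNA was taken on day 2. No untransfected cells are among the samples, and the siRNA sequence was not known here. The labels leave unsaid whether replicates came from different dishes. The p-values then reflect library-to-library spread alone, part of which may be technical.

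REEP proteins are hairpin membrane proteins that bend the endoplasmic reticulum into tubules. REEP3 and REEP4 also bind microtubules and keep endoplasmic reticulum away from chromosomes during cell division, and REEP5 is a tubule-shaping member found in most cells. SLC44A1 is a choline transporter of the plasma membrane and mitochondria, and choline is the precursor of phosphatidylcholine. SGCB, beta-sarcoglycan, is a single-pass protein of the sarcoglycan complex that sits beside dystrophin in muscle and is also made outside muscle. YIPF6 is a multi-pass protein of Golgi membranes from the YIP1 family.

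The 4 genes with large falls share a 3' UTR word, GATAACT, which earlier work on these data had found by its link to falling genes, so its presence here is a description and not independent evidence. The copies are shown because each of these 4 genes holds the word in its 3' UTR and REEP4 and REEP5 do not. The 4 genes also share long 3' UTRs and a low share of G and C, as given below. Each line gives 23 bases of the transcript, 5′ to 3′, with the word in capitals, as in GENCODE release 29 (GRCh38), and positions count from the stop codon.
REEP3 at base 1200: cttgaactGATAACTatgcatta
REEP3 at base 3668: tgttttttGATAACTttaatata
SLC44A1 at base 1264: gtttatgcGATAACTcctttttg
SGCB at base 83: gagtttgtGATAACTcataatta
SGCB at base 588: gaaataatGATAACTatcaattg
SGCB at base 659: ataataatGATAACTatctttat
YIPF6 at base 109: aggtatttGATAACTgagtaggt
YIPF6 at base 351: atagagttGATAACTattttcag
YIPF6 at base 2184: taccccaaGATAACTttgcctac
DEPDC1, the siRNA target: tagtctaaGATAACTaactgaat

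In REEP3 the words lie in exon 8 of 8, on the plus strand at chr10:63622069-63622075 and chr10:63624537-63624543. The SLC44A1 copy is in exon 16 of 16, on the plus strand at chr9:105390320-105390326. The SGCB copies are in exon 6 of 6, on the minus strand at chr4:52023868-52023874, chr4:52023363-52023369 and chr4:52023292-52023298. The YIPF6 copies are in exon 7 of 7, on the plus strand at chrX:68532108-68532114, chrX:68532350-68532356 and chrX:68534183-68534189. The DEPDC1 copy is in exon 12 of 12, on the minus strand at chr1:68476930-68476936, and spans the stop codon. Counted without a break through the word, the member sites share 7 to 9 bases with the DEPDC1 site. The longest shared run is that of the last YIPF6 copy at 9 bases, 4 of the 9 member copies share 8, and 4 share the word alone. The 7 bases of the word are shared by construction, and how often longer runs arise by chance was not computed. The siRNA sequence was not known here, so its match to these sites was not tested.

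**Figure D1:**
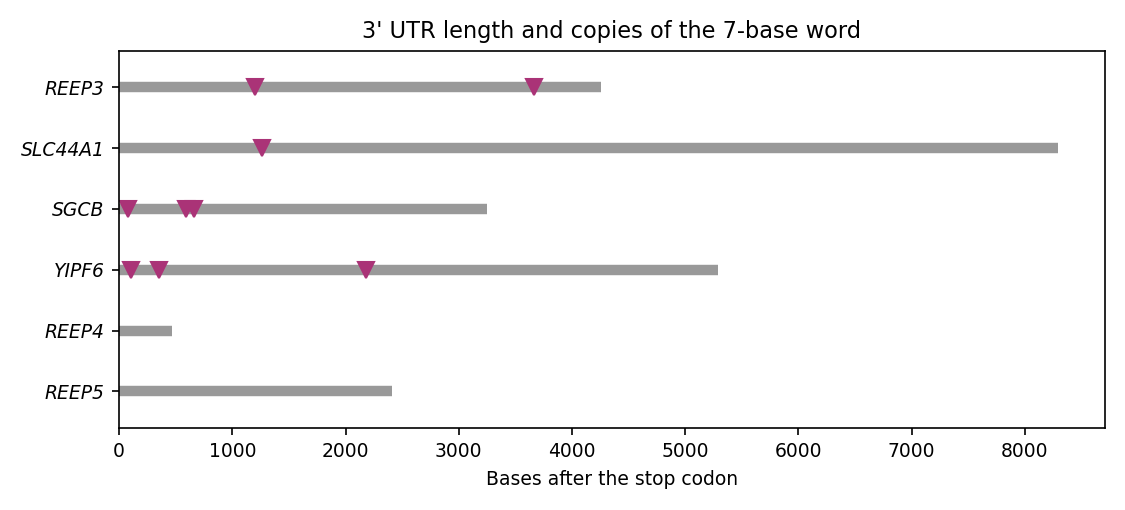
Length of the 3' UTR of the transcript kept for each of the 6 genes (grey bars, bases after the stop codon) and the starts of its copies of the 7-base word (triangles). REEP3 has 2 copies, SLC44A1 1, SGCB 3 and YIPF6 3, and the bars of REEP4 and REEP5 hold none.

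The copies differed in number and place among the 4 genes. SGCB holds its 3 copies at bases 83, 588 and 659 after the stop codon of a 3251-base 3' UTR, so all lie in its first part. YIPF6 holds 3 at bases 109, 351 and 2184 of 5286, REEP3 holds 2 at bases 1200 and 3668 of 4254, and SLC44A1 holds 1 at base 1264 of 8290. REEP4 (467 bases) and REEP5 (2407 bases) have none in any of their 4 and 5 annotated coding transcripts. The word is not in every isoform of the others either: it was present in 1 of 2 coding transcripts of REEP3, 3 of 4 of SLC44A1, 1 of 3 of SGCB and 2 of 3 of YIPF6, and counts per gene do not tell isoforms apart.

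These 3' UTRs are long, and a long sequence holds more copies of any word. At least 1 copy was found in 902 of 12149 searched genes (7.42%), at least 2 in 102 (0.84%) and at least 3 in 15 (0.123%). Among the 2159 genes with a 3' UTR of at least 3000 bases, a class to which all 4 belong, 21.7% had at least 1 copy and 0.648% at least 3. Copy number did not follow the size of the fall among the 4: SLC44A1, with 1 copy, had a larger fold than SGCB and YIPF6, with 3 each. These 4 were picked for large falls, so they cannot show whether copies and falls go together. Over all searched genes, the median log2 fold change was 0.0127 without a copy and -0.249 with at least 1. It was -0.301 with at least 2 copies and -0.537 with at least 3, a group of 15 genes that includes SGCB and YIPF6. Among genes with a 3' UTR of at least 3000 bases it was -0.0193 without a copy and -0.176 with at least 1. In that class it was -0.275 with at least 2 copies and -0.53 with at least 3. The word was found on these libraries, so these medians describe and do not test. The kept transcripts of the 4 are also poor in G and C, at 35.2% for REEP3, 39.2% for SLC44A1, 39.5% for SGCB and 40.3% for YIPF6, against a median of 49.0% over tested genes. REEP5 is near them at 41.5% and REEP4 is not, at 62.2%.

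Levels are CPM, counts scaled to a common library size with TMM factors, which correct for differences in RNA composition between libraries. Values after ± are the SD over 3 siCTL or 4 siDEPDC1 libraries unless SE is named. Log2 fold changes are siDEPDC1 over siCTL with the standard error (SE) of edgeR's quasi-likelihood test, and a gene is called where its Benjamini-Hochberg adjusted p over all tested genes is under 0.05. The library totals ran from 7690583 to 15360409 counts. DEPDC1 itself was at 114 to 120 CPM in siCTL and 11.9 to 15.3 CPM in siDEPDC1, so 11.3% of it was left. Of markers of the line, VIM (3710 ± 166 CPM in siCTL, SD, n = 3), AXL (1090 ± 76.4), CD44, EGFR and CAV1 were abundant and ESR1 and PGR were under 1 CPM, whereas SPARC, listed as a marker of the line, was also under 1 CPM and ERBB2 stood at 64.5 ± 0.869 CPM. Of 12 markers of other cell types, 5 passed the filter, ADIPOQ had 0 counts in every library, and the summed level was 35 to 36.6 CPM in siCTL and 49.7 to 59.2 CPM in siDEPDC1. COL1A1 made up most of that difference (12.9 ± 1.35 to 30.2 ± 2.52 CPM). The part of these markers in the results was not tested, and in bulk RNA fewer cells of a type and less RNA per cell cannot be told apart.

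The 4 genes chosen for their fall kept 24.1 to 28.5% of their siCTL level, and their values are given as a description with no test. REEP3 (ENSG00000165476; GRCh38 chromosome 10, 63521363 to 63625123, plus strand) was at 117, 114 and 135 CPM in siCTL and 31.0, 30.4, 27.6 and 28.2 CPM in siDEPDC1. Every siDEPDC1 library was low, and the lowest siCTL value was 3.67 times the highest siDEPDC1 value. The means were 122 ± 11.4 (SD, n = 3) and 29.3 ± 1.65 CPM (SD, n = 4), a log2 fold change of -2.05 ± 0.070 (SE), with 24.1% of the transcript left. In raw counts this was 1551 to 1733 reads per siCTL library and 212 to 413 per siDEPDC1 library.

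SLC44A1 (ENSG00000070214; chromosome 9, 105244622 to 105439171, plus strand) was at 88.3, 96.7 and 98.5 CPM in siCTL and 25.7, 25.8, 24.1 and 22.3 CPM in siDEPDC1. The groups were far apart, with 23.6 to 27.3% of the siCTL mean left in the single siDEPDC1 libraries. Its log2 fold change was -1.95 ± 0.071 (SE). SGCB (ENSG00000163069; chromosome 4, 52020706 to 52038482, minus strand) was at 45.9, 44.5 and 46.1 CPM in siCTL and 13.8, 12.9, 13.2 and 12 CPM in siDEPDC1. It had the lowest CPM of the 4, not corrected for transcript length, with 101 to 175 reads per siDEPDC1 library. Its siCTL libraries were nevertheless the closest together, with an SD of 1.94% of the mean. Its log2 fold change was -1.81 ± 0.079 (SE), and 28.5% was left.

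YIPF6 (ENSG00000181704; chromosome X, 68498323 to 68537285, plus strand) was at 82.1, 77.1 and 84.6 CPM in siCTL and 26.7, 23, 18.8 and 23.7 CPM in siDEPDC1. It varied most among siDEPDC1 libraries, from 23.1 to 32.9% of the siCTL mean, an SD of 14.2% of the group mean against 5.62 to 6.78% for the other 3. The log2 fold change was -1.81 ± 0.078 (SE). Ranked by fall among the 12164 tested genes with a mean of at least 5 CPM, REEP3 was 5th, SLC44A1 7th, SGCB 11th and YIPF6 12th. CACUL1 came next after YIPF6, at -1.76. A fall as large as that of YIPF6 or larger was seen in 0.0965% of all tested genes, 1.30% were lower at least 2-fold, and in 19.6% all siDEPDC1 libraries lay below all siCTL libraries, shares from which nothing is read for genes picked by this contrast.

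**Figure D2:**
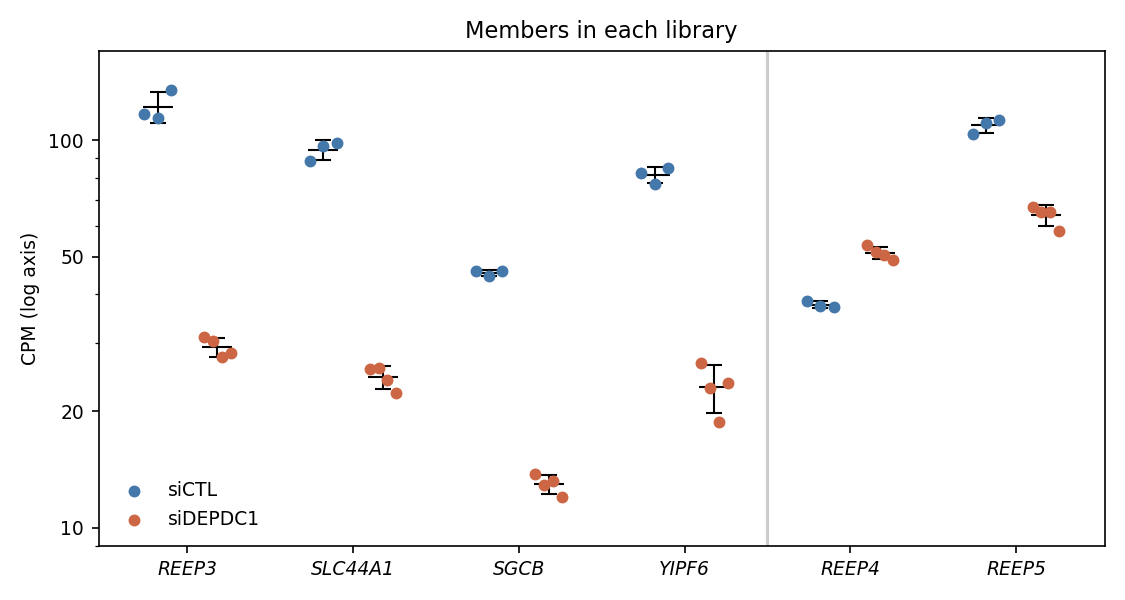
CPM of the 6 genes in each of the 7 libraries (points, log axis), with the mean and SD of each group (black bars). The 4 genes chosen for their fall sit between 12 and 31.0 CPM in siDEPDC1 and between 44.5 and 135 CPM in siCTL, while REEP4 is higher in all 4 siDEPDC1 libraries and REEP5 lower.

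REEP4 and REEP5 were taken for their kinship with REEP3 and not for their own change, so their changes were tested. Earlier results of these data were known at that choice, which limits these tests. REEP4 and REEP5 went in opposite directions. REEP4 (ENSG00000168476; chromosome 8, 22138020 to 22141951, minus strand), the closest partner of REEP3 in its role at division, was at 38.5, 37.4 and 37.1 CPM in siCTL and 53.5, 51.6, 50.7 and 49.0 CPM in siDEPDC1. All siDEPDC1 values were higher than all siCTL values, and the log2 fold change was 0.44 ± 0.068 (SE; edgeR adjusted p = 3.5e-06). REEP5 (ENSG00000129625; chromosome 5, 112876379 to 112922539, minus strand) was at 104, 111 and 113 CPM in siCTL and 67.1, 65.3, 65.4 and 58.2 CPM in siDEPDC1. Again no libraries overlapped, and REEP5 fell by 0.77 ± 0.062 on the log2 scale (SE; edgeR adjusted p = 3.2e-12), so that 58.6% was left. SRP19 overlaps REEP5 by 21993 bases on the opposite strand, and the strand setting of the counting was not known here, so reads in that stretch cannot be assigned to either gene with certainty. An exact two-sided permutation test over libraries gave p = 0.0286 for each gene, the smallest value that 3 against 4 libraries allow.

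The balance between the relatives was also computed within libraries. The log2 ratio of REEP4 to REEP5 was -1.53 ± 0.095 in siCTL (SD, n = 3) and -0.32 ± 0.052 in siDEPDC1 (SD, n = 4), with ranges of -1.61 to -1.43 and -0.37 to -0.25. The ratio was therefore higher in every siDEPDC1 library, by 1.21 on the log2 scale on average (exact two-sided permutation test, p = 0.0286, the smallest possible here). REEP4 was higher and REEP5 lower in every siDEPDC1 library, so this separation followed from the values above and is no further test. Over all tested genes, 17.9% were lower and 16.5% higher, so a call in either direction is common in this comparison. Groups without overlap were common too, in 19.6% of tested genes for a fall and 17.7% for a rise.

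The remaining REEP genes were all less abundant and were higher. REEP2, a neuronal member, went from 17.8 ± 2.32 to 28.9 ± 2.34 CPM (log2 fold change 0.72, edgeR adjusted p = 6.4e-08). REEP1, mutated in hereditary spastic paraplegia, went from 3.52 ± 0.535 to 5.11 ± 0.750 CPM (0.53, edgeR adjusted p = 0.013). That call ended when siCTL replicate 2 was dropped (edgeR adjusted p = 0.099) or DESeq2 was used (adjusted p = 0.055). REEP6, best known from photoreceptors, went from 6.98 ± 0.552 to 8.89 ± 0.690 CPM (0.34, edgeR adjusted p = 0.03). Dropping siCTL replicate 1 ended its call (edgeR adjusted p = 0.11), as did dropping siCTL replicate 3 (0.083) or siDEPDC1 replicate 4 (0.097), using DESeq2 (0.099), omitting the count filter (0.075) or removing a GC and length trend with limma (0.11). With REEP4, 4 of the 5 relatives of REEP3 were higher and REEP5 alone was lower, beside 16.5% higher and 17.9% lower over all tested genes. With DESeq2, 2 REEP genes were higher. None of the 5 carries the word in its 3' UTR.

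Levels of different genes were compared per kilobase of the kept transcript. In siCTL, REEP5 was the most abundant of the family at 32.8 ± 1.49 CPM per kilobase (SD, n = 3), followed by REEP3 at 23.4 ± 2.19 and REEP4 at 22 ± 0.438, which did not differ beyond their spread. In siDEPDC1 the order was REEP4 at 29.9 ± 1.10 CPM per kilobase (SD, n = 4), REEP5 at 19.2 ± 1.19, REEP2 at 13.3 ± 1.08 and then REEP3 at 5.63 ± 0.316. REEP3 thus made up 25.2 ± 1.28% of the per-kilobase level of all 6 REEP genes in siCTL and 7.36 ± 0.242% in siDEPDC1, and REEP4 23.8 ± 1.47% and 39.1 ± 0.472%. The family's sum was lower, 89.5 to 97.5 CPM per kilobase in siCTL and 74.2 to 78.8 in siDEPDC1. The other genes chosen for a fall were less abundant than REEP3 per kilobase in siCTL, with YIPF6 at 12.1 ± 0.571, SGCB at 10.3 ± 0.199 and SLC44A1 at 8.99 ± 0.517, and kept that order in siDEPDC1, where YIPF6 (3.42 ± 0.486) and SGCB (2.93 ± 0.165) overlapped.

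**Figure D3:**
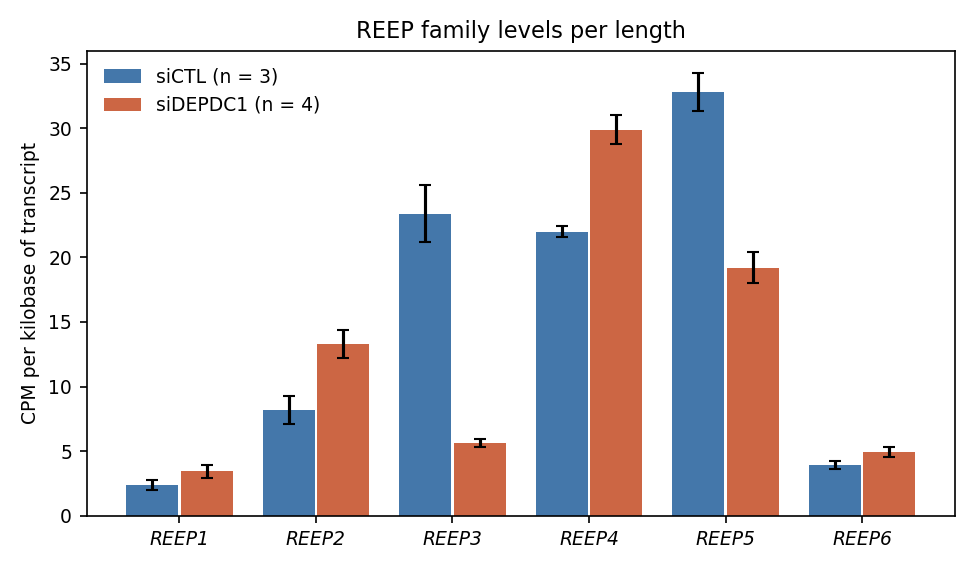
Mean CPM per kilobase of the kept transcript for the 6 REEP genes, with SD bars over 3 siCTL and 4 siDEPDC1 libraries. REEP3 goes from 23.4 to 5.63 and REEP5 from 32.8 to 19.2, while REEP4 goes from 22 to 29.9.

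Genes that shape the endoplasmic reticulum together with REEP proteins moved both ways. Of 21 tested atlastins, reticulons and related genes, 3 were lower and 6 higher, beside 17.9% lower and 16.5% higher over all tested genes. The list's median log2 fold change was 0.0014, against 0.00094 over all tested genes. ARL6IP1, a reticulon-like shaping protein, fell from 201 ± 4.80 to 121 ± 11.2 CPM (log2 fold change -0.74, edgeR adjusted p = 8.3e-12). The reticulon RTN2 rose from 21.4 ± 1.46 to 33.3 ± 4.52 CPM, and RTN1, a largely neuronal reticulon, from 1.46 ± 0.283 to 4.05 ± 0.695 CPM. RTN4, the most abundant reticulon of the list by CPM, rose 1.24-fold and RTN3 fell 1.20-fold, both named after their values were seen. Among the atlastins, the GTPases that fuse tubules, none was called.

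SLC44A1 was chosen for its fall, so nothing is read from its contrast with its tested relatives. SLC44A2, a choline transporter-like protein of the plasma membrane and mitochondria, was at 149 to 151 CPM in siCTL and 180 to 211 CPM in siDEPDC1. It rose by 0.38 ± 0.057 on the log2 scale (SE; edgeR adjusted p = 2.6e-06) with no overlap between groups, beside 17.7% higher with no overlap over all tested genes. SLC44A5 was at 11.3 ± 0.539 and 10.7 ± 2.95 CPM and was not called (log2 fold change -0.068 ± 0.133, SE), and SLC44A3 and SLC44A4 stayed under the filter. Per kilobase, SLC44A1 made up 17.5 ± 0.872% of the family's summed level in siCTL and 4.12 ± 0.444% in siDEPDC1, and SLC44A2 77.1 ± 1.10% and 91.0 ± 1.81%.

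In the wider list of choline transport and phosphatidylcholine and phosphatidylethanolamine synthesis, 4 of 15 tested genes were lower and 4 higher, with a median log2 fold change of 0.068. Without SLC44A1, which was chosen for its fall, 3 of 14 were lower and 4 higher (median 0.073), beside 17.9% lower and 16.5% higher over all tested genes. Besides SLC44A1 the lower genes were SELENOI, CHDH and CEPT1. SELENOI, which makes phosphatidylethanolamine, fell from 73.2 ± 4.2 to 43.4 ± 2.24 CPM (log2 fold change -0.75, edgeR adjusted p = 4.1e-11) and carries 1 copy of the word. CHDH, which oxidises choline, fell 1.56-fold. CEPT1, a final enzyme of phosphatidylcholine synthesis, fell 1.36-fold, while CHPT1, the Golgi enzyme for the same step, rose 1.31-fold. CHDH, CEPT1 and CHPT1 were named after their values were seen.

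Of the sarcoglycans, only SGCB and SGCE passed the filter. SGCE, epsilon-sarcoglycan, a widely expressed member, was at 49.6 ± 2.95 CPM in siCTL and 46.5 ± 2.97 CPM in siDEPDC1 and was not called (log2 fold change -0.089 ± 0.070, SE; edgeR adjusted p = 0.34). SGCA, SGCD and SGCZ had 1 to 14 reads over all 7 libraries together, too few for a change to be detectable at this depth. In the wider dystroglycan list, 9 of 24 tested genes were lower and 5 higher, with a median log2 fold change of -0.085. Without SGCB it was 8 lower of 23, beside 17.9% lower and 16.5% higher over all tested genes. Among the lower genes, UTRN (log2 fold change -0.17, edgeR adjusted p = 0.029) had overlapping groups. Its call ended with DESeq2 (adjusted p = 0.053), with library size alone (edgeR adjusted p = 0.079) and with the GC and length trend removed (limma adjusted p = 0.63). Dropping siCTL replicate 1 (edgeR adjusted p = 0.089) or siDEPDC1 replicate 2 (0.15), among others, also ended it.

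SSPN, sarcospan, a membrane partner of the sarcoglycans, fell from 3.88 ± 1.31 to 1.10 ± 0.343 CPM. This was a low level but a log2 fold change of -1.80 ± 0.258 (SE; edgeR adjusted p = 9.4e-07), close in size to that of SGCB, and SSPN carries 1 copy of the word. RXYLT1, a glycosyltransferase that extends the sugar chain of dystroglycan, fell 1.74-fold and has no copy. SNTB2, a syntrophin with 1 copy, fell 1.32-fold, and DAG1, dystroglycan itself, fell 1.15-fold without one. SNTB2, DAG1, SGCE and UTRN were named after their values were seen.

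YIPF6 was chosen for its fall, so nothing is read from its standing apart in its family. Of the other 8 tested YIPF and YIF1 genes, 5 were higher, against 16.5% of all tested genes, and none was lower. YIPF5, which works between the endoplasmic reticulum and the Golgi, was at 51.5 to 58.0 CPM in siCTL and 72.7 to 81.3 CPM in siDEPDC1, a log2 fold change of 0.51 ± 0.065 (SE; edgeR adjusted p = 1.2e-07). YIPF2, YIPF3, YIPF4 and YIF1A rose 1.36-fold, 1.27-fold, 1.22-fold and 1.33-fold with no overlap between groups. Over all tested genes, 17.7% were higher with no overlap. YIPF1 (log2 fold change 0.011), YIPF7 (-0.38, at 2.45 ± 0.419 CPM in siCTL) and YIF1B (0.0086) were not called, and with a GC and length trend removed YIF1B turned to -0.11 and was called lower (limma adjusted p = 0.025). None of these 8 has the word, and per kilobase YIPF6 was a small part of the family in both groups, 3.46 ± 0.216% and 0.873 ± 0.151%.

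**Figure D4:**
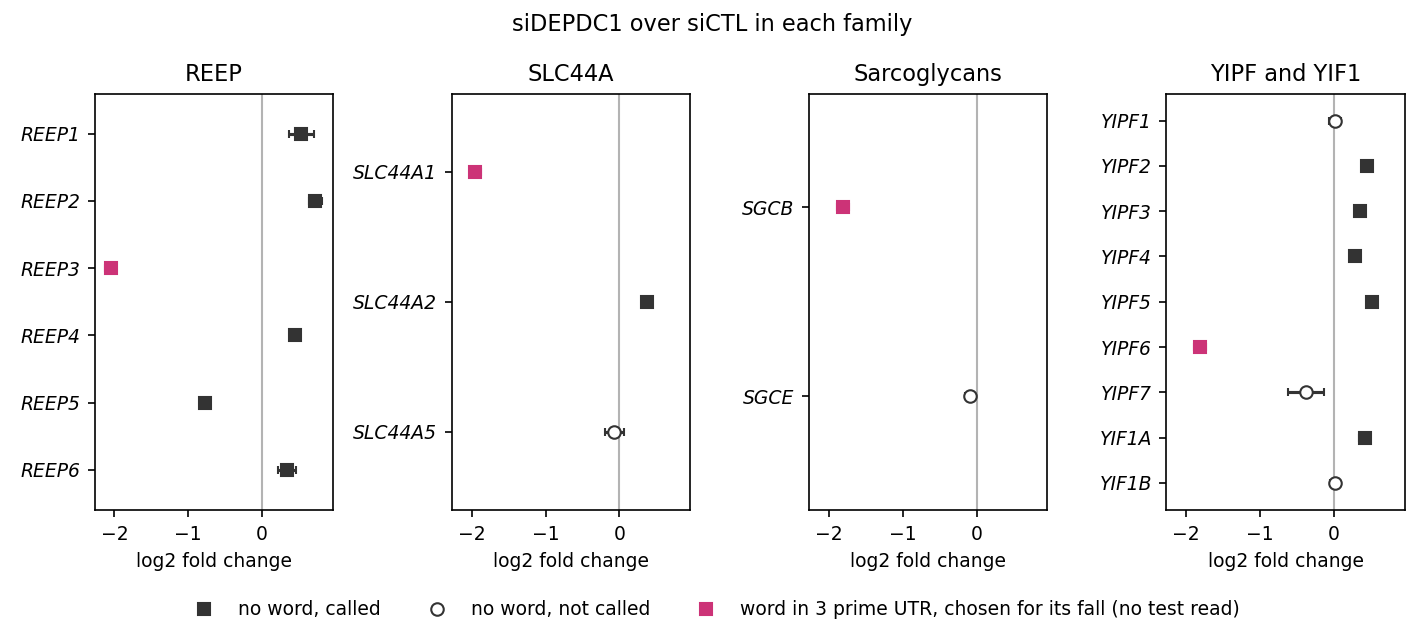
Log2 fold change with SE for each tested gene of the REEP, SLC44A, sarcoglycan and YIPF families. REEP3, SLC44A1, SGCB and YIPF6, chosen for their fall and also carriers of the word, lie at -2.05 to -1.81. Every other gene lies between -0.77 (REEP5) and 0.72 (REEP2). The gap follows from the choice, so nothing is read from it.

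Among 23 genes of Golgi structure and traffic, 3 were lower and 9 higher (median log2 fold change 0.089), beside 17.9% lower and 16.5% higher over all tested genes. TMED10, a cargo receptor of the p24 family, fell from 229 ± 5.16 to 142 ± 6.59 CPM and GOLGA4, a golgin of the trans-Golgi, from 188 ± 17.7 to 99.0 ± 11.1 CPM. KDELR2, which returns resident proteins to the endoplasmic reticulum, rose from 197 ± 6.72 to 283 ± 10.2 CPM. SEC22B, named after its value was seen, fell by 0.22 on the log2 scale (edgeR adjusted p = 0.0089) and lost its call with a GC and length trend removed (limma adjusted p = 0.19).

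Across these 6 lists, without the 4 genes chosen for a fall, 94 genes were tested. Of 9 that carry the word, 8 were lower and none higher, among them SPAST, SELENOI, SSPN, SNTB2, GOLGA4, SEC22B and TMED10, with GOLGB1 not called (log2 fold change -0.034). SPAST, the microtubule-severing spastin, is the weakest of them (-0.26, edgeR adjusted p = 0.034). Its call ended when siCTL replicate 1 (edgeR adjusted p = 0.087), siCTL replicate 2 (0.11), siDEPDC1 replicate 3 (0.056) or siDEPDC1 replicate 4 (0.16) was dropped, with library size alone (0.067), with DESeq2 (0.1) and with the GC and length trend removed by limma (0.16). Of 83 searched genes without the word, 10 were lower and 31 higher, beside 17.9% lower and 16.5% higher over all tested genes. Over all searched genes 54.4% of carriers and 17.6% of the others were lower, and the word was found on these same libraries, so the counts describe the lists and do not test them.

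The chromosomal neighbours of the 6 genes moved both ways. The nearest tested gene on each side and any tested gene overlapping a member gave 14 genes, of which 5 were lower and 4 higher, against 34.4% called in either direction over all tested genes. JMJD1C, a histone demethylase-like gene that shares 488 bases with the start of REEP3 on the opposite strand, was at 151 ± 1.91 and 134 ± 11.5 CPM (log2 fold change -0.18, edgeR adjusted p = 0.019). The call ended when siCTL replicate 2 (edgeR adjusted p = 0.056), siDEPDC1 replicate 2 (0.085) or siDEPDC1 replicate 3 (0.087) was dropped, with library size alone (0.058) and with the GC and length trend removed by limma (0.45). Here too reads in the overlap cannot be told apart by gene. STARD8, beside YIPF6, was higher by 0.29 on the log2 scale (edgeR adjusted p = 0.0011).

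Beside SLC44A1, the cholesterol exporter gene ABCA1, 316 kb away, fell by 0.88, while FSD1L, 8.62 kb away, was not called. Beside SGCB, USP46 fell by 0.55 and DCUN1D4 was not called. SRP19, a signal recognition particle gene that overlaps REEP5 on the opposite strand, was higher (0.39), DCP2, an mRNA decapping enzyme on its other side, was lower (-0.80), and APC was not called (edgeR adjusted p = 0.053) but passed when siCTL replicate 2 (edgeR adjusted p = 0.035) or siDEPDC1 replicate 1 (0.019) was dropped. Beside REEP4, HR was higher (0.65) and BMP1 lower (-0.20, edgeR adjusted p = 0.028). The BMP1 call ended when siCTL replicate 1 (edgeR adjusted p = 0.084), siCTL replicate 2 (0.14), siDEPDC1 replicate 2 (0.13) or siDEPDC1 replicate 3 (0.059) was dropped, with library size alone (0.064) and with DESeq2 (0.06). Of the 12 neighbours searched for the word, USP46 and DCP2 carry it.

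**Figure D5:**
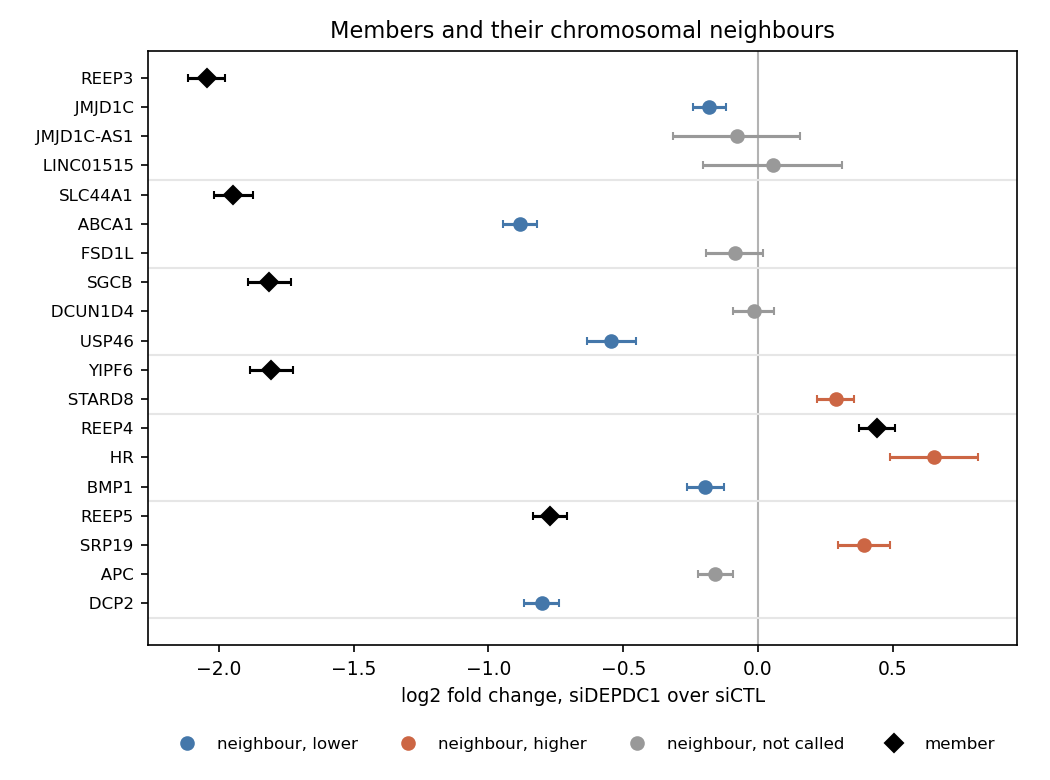
Log2 fold change with SE of the 6 genes (black diamonds) and of nearest or overlapping tested genes on their chromosomes (circles, coloured by call). No neighbour drawn reaches the -1.81 to -2.05 of the 4 fallen genes, and the lowest is ABCA1 at -0.88.

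The genes whose pattern over the 7 libraries was most like that of REEP3, by Pearson's r of log2 CPM, were WWTR1, a transcriptional coactivator also called TAZ, ACBD5, a peroxisomal membrane protein, AHCYL1, a regulator of calcium release, MAGT1, a magnesium transporter and oligosaccharyltransferase subunit, and OTUD4, a deubiquitinase. Their r ran from 0.999 to 0.998, and their log2 fold changes were -1.03, -1.36, -1.02, -1.60 and -0.98. All but ACBD5 carry the word in the 3' UTR, as do 7.42% of all searched genes. Nothing is read from this, since the word was found by its link to falling genes in these libraries. SEPTIN2 and TOMM20 were most like SLC44A1, DEPDC1 and MAGT1 most like SGCB, and PLAAT4 and SMARCD1 most like YIPF6. Of these, DEPDC1 and PLAAT4 have no copy in the 3' UTR and the others do. High r values come mainly from the split between the groups, which all these genes share: 782 of the 12164 genes compared had an r above 0.95 with REEP3, and REEP5 had 0.988.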

How the data were processed

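The authors deposited raw counts per Ensembl gene for 7 libraries, not pooled. Per the submitters' processing notes the build was GRCh38 and the tools FastQC, STAR 2.7.9a and DESeq2; no source used here names the counter, its annotation or its strand setting. Per the labels' protocols, TruSeq RNA libraries were read as pairs of 100 bases. Symbols came from a name table (60419 of 60675 identifiers) and coordinates and transcripts from GENCODE 29 (58444 identifiers), keeping the transcript with the longest coding sequence. Counts were filtered by filterByExpr (16583 genes) and compared by the robust, two-sided quasi-likelihood test of edgeR 4.0.16 after TMM scaling (R 4.3.3), a step tested on simulated data. DESeq2 1.42.0 and limma 3.58.1 (voom) were alternatives, with other scalings, filters, a replicate block and each library left out. Removing a GC and length trend (lowess, span 0.4, then limma) was added after seeing the data. The members and lists were chosen with earlier results of these data known. Named were the members, their tested families, the 3 called genes of smallest adjusted p per other list (plus 1 of opposite direction where those agreed in sign), neighbours, and the 5 or 2 genes most correlated with each fallen gene. Replicates of a group differed by more than sampling noise. A few genes that the lists or the rule hold are counted but not reported here by name.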

Additional observations from a re-analysis of the deposited data

Results flagged for a closer look

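Among 61 sets of 4 siDEPDC1 values examined, a single library stood apart from the other 3 in 3 genes (the gap to its nearest neighbour was above Dixon's critical share of the whole range), a rule that chance meets in about 1 of 20 sets. SLC44A5 was at 15.2 CPM in siDEPDC1 replicate 1, against 9.58 CPM in the next library. ARL6IP1 was at 104 CPM in siDEPDC1 replicate 4, against 125 CPM in the next. RXYLT1 was at 5.61 CPM in siDEPDC1 replicate 4, against 7.94 CPM in the next. None of the 6 member genes was among them.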

How the results depend on the processing

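Under 16 alternatives each, the log2 fold changes ran from -2.10 to -1.93 for REEP3, -1.99 to -1.79 for SLC44A1, -1.84 to -1.71 for SGCB, -1.87 to -1.70 for YIPF6, 0.35 to 0.47 for REEP4 and -0.81 to -0.70 for REEP5, whose calls were kept throughout. Removing the GC and length trend moved REEP3 to -1.93, SLC44A1 to -1.79 and SGCB to -1.71, each by more than its spread between replicates, turned YIF1B to -0.107 (called), and gave 1 lower gene in the YIPF family besides YIPF6. With DESeq2, 2 REEP genes were higher in place of 4. Leaving out 1 library gave log2 REEP4 over REEP5 differences of 1.18 to 1.27, where the smallest p possible is 0.0667 or 0.1. Same-numbered libraries did not deviate together (r = -0.186, 0.0464 and -0.226), and the highest r, 0.235, was between siCTL replicate 3 and siDEPDC1 replicate 1. With so few libraries this does not settle whether the numbers mark pairs. With a replicate block on numbers 1 to 3 the values were -2.02 (REEP3), -1.90 (SLC44A1), -1.77 (SGCB), -1.82 (YIPF6), 0.47 (REEP4) and -0.72 (REEP5). The block ended the calls of REEP6 (edgeR adjusted p = 0.14), SPAST (0.22), UTRN (0.065), SEC22B (0.058) and JMJD1C (0.058). The precision of SGCB is limited by 101 reads in its shallowest library.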
